A study of Mus musculus with 3 samples.

Results

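The collagen and basement membrane genes encode collagens, laminins and a few other matrix proteins, some of which surround the ovarian follicle. They were taken by symbol from the mouse annotation. Protein-coding genes named Col, a number, a and a number, or Lama, Lamb or Lamc and a number, were joined by Fn1, Hspg2, Nid1 and Nid2. This gave 59 of 21887 protein-coding genes, 44 collagens, 11 laminins and the 4 others. Trimethylation of histone H3 on lysine 4 (H3K4me3), a promoter mark, was mapped by chromatin immunoprecipitation with sequencing. The granulosa cells came from wild-type C57BL/6 female mice at postnatal day 21 to 28. All mice received 4 IU of eCG, a gonadotropin that makes follicles grow. One library came from ovaries taken before hCG (0 h), and the others from ovaries taken 4 h and 12 h after 5 IU of hCG, which stands in for the ovulatory LH surge. Granulosa cells were released by puncturing follicles, so cells of other types may be present, and the labels do not say how many mice gave each library. In such bulk material, fewer marked cells and less mark per cell cannot be told apart. With 1 library per time there is no replicate, no error can be put on a change, and no test was made.

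The follicle is enclosed by a basement membrane that separates the granulosa layer from the theca and its vessels. Its scaffold is built of collagen IV and laminin networks, which nidogens and perlecan join. At ovulation the follicle wall opens, and vessels then grow into the luteinizing granulosa layer. Granulosa cells make basement membrane components, while fibrillar collagens are mainly products of the theca and stroma.

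Promoter sequences are printed for a few members with higher coverage at 4 h, and for 1 that stayed bare. They are examples and do not stand for all marked or bare members. Each line gives the 250 bases before an annotated start, 5′ to 3′ on the gene's strand, from RefSeq on GRCm38.p6. Capitals mark matches to 4 promoter motifs, searched on both strands. The GC box was searched as GGGCGG, and the box that NF-Y binds was searched as CCAAT. The sequence TATAAA was read as a TATA box. The AP-1 site was read as TGANTCA with N for any base. Hspg2, Nid1, Col18a1, Col25a1 and Lamb1 are shown because their coverage was higher at 4 h than at 0 h, and Col3a1 because it had no peak at any time.
Hspg2, chr4:137468553-137468802, plus strand: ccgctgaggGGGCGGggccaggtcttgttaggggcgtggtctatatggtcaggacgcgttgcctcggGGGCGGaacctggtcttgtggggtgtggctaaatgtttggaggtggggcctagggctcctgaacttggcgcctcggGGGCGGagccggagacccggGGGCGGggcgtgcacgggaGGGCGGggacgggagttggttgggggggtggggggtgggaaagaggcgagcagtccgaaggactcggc
Nid1, chr13:13437352-13437601, plus strand: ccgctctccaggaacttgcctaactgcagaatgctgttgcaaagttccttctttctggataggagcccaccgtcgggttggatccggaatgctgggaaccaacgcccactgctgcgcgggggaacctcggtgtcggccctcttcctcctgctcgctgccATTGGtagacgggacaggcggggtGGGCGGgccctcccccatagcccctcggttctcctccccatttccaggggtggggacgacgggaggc
Col18a1, distal start, chr10:77166531-77166780, minus strand: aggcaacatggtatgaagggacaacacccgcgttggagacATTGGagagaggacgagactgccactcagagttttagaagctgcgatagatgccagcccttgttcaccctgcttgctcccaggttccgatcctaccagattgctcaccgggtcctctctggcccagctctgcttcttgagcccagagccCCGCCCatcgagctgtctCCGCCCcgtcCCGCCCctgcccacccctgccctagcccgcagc
Col25a1, chr3:130180595-130180844, plus strand: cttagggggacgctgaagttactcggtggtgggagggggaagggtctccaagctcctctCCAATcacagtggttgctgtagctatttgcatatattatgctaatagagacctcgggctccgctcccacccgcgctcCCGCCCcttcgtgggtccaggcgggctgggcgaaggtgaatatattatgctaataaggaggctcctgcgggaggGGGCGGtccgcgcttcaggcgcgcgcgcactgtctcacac
Lamb1, chr12:31265043-31265292, plus strand: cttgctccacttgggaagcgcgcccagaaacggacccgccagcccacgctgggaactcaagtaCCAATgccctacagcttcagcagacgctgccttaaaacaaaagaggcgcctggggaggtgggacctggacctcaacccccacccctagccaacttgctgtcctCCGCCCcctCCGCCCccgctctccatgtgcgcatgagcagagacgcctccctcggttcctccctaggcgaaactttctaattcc
Col3a1, chr1:45311288-45311537, plus strand: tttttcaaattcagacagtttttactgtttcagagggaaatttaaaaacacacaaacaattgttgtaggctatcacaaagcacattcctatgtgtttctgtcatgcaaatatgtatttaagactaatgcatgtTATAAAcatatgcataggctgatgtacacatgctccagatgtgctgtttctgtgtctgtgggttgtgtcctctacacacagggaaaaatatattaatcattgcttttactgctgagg
The stretch from Hspg2 held 5 GC boxes and 20 CpG dinucleotides in its 250 bases. In the stretch from Col3a1 there were 0 CpG and 1 TATA box. Col4a1 and Col4a2, the paired collagen IV genes transcribed in opposite directions, have annotated starts 21 bp apart. The 30 bases around them are given on the plus strand, with the 22 bases from the Col4a2 start to the Col4a1 start in capitals, and hold 1 GC box.
Col4a1 and Col4a2 starts, chr8:11312801-11312830, plus strand: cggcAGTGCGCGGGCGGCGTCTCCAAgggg

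Coverage was measured as the number of bp covered by the authors' peaks within a gene and the 5 kb around it. A gene with at least 1 covered bp was called marked. It was called higher when it was marked only at the later time or had at least 2-fold more covered bp there, and lower in the opposite case. Gene lengths and windows differ, so the value describes how far peaks extend and is no expression level. In order of time the libraries gave 22236, 23662 and 20669 peaks on 8.87, 10.1 and 8.93 Mb, and their narrowest peaks were 136, 139 and 152 bp wide. Sequencing depth is unknown. Over all genes marked at both times the median log2 ratio of covered bp was 0.12 from 0 h to 4 h, -0.14 from 4 h to 12 h and -0.02 from 0 h to 12 h, and the log2 ratios below are centred on these medians. The tag nolambda stands in every peak name at 0 h and 4 h and in none at 12 h, although the title of the 12 h list has it, so whether all lists were called alike is unknown. The sample descriptions carry the lane code 4 for the earlier libraries and 5 for the 12 h library. The part of these differences in any change that involves 12 h cannot be told apart from time.

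The labelled cell type was checked against marker genes, where 60.7% of all genes were marked at some time. Of 12 granulosa genes, 11 were marked at some time, among them Foxl2, Fshr, Esr2, Fst and Gja1, and only Amh was not. Their summed coverage was 14365 bp at 0 h, 11273 bp at 4 h and 6644 bp at 12 h. Among 11 endothelial genes 3 were marked at some time, and the other 8, among them Pecam1, Cdh5, Tie1 and Tek, had 0 bp throughout. The sum over the endothelial genes was 302, 517 and 164 bp. Kdr had 0, 347 and 164 bp, Erg 0, 170 and 0 bp and Sox18 302, 0 and 0 bp. Of 8 smooth muscle and pericyte genes 2 were marked (341, 308 and 0 bp in sum), and Acta2 and Pdgfrb had 0 bp. For 8 immune genes the sums were 838, 1668 and 891 bp, nearly all from Cd68, and Ptprc had 139 bp at 4 h alone. Of 6 stroma and fibroblast genes only Pdgfra was marked, with 192 bp at 12 h. Among 6 theca genes 4 were marked, a share (66.7%) near that of all genes. Their sums were 3647, 4464 and 4554 bp and include Pdgfra again. Ptch1 had 903, 1670 and 1199 bp, Gli1 864, 789 and 1220 bp and Nr2f2 1880, 2005 and 1943 bp. Cyp17a1 and Insl3 had 0 bp. Of 7 oocyte genes only Gdf9 was marked (810, 1166 and 530 bp), and of 5 surface epithelium genes only Lgr5 (0, 140 and 172 bp).

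The collagen and basement membrane genes carried the mark less often than protein-coding genes at large, and its share was higher among the basement membrane genes than among the other collagens. At 0 h 20 of 59 members (33.9%) were marked, at 4 h 27 (45.8%) and at 12 h 25 (42.4%). Of all protein-coding genes 56.3%, 58.3% and 56.2% were marked at these times. The members are long genes, with a median of 106 kb against 17.2 kb for all genes. Of the 3830 genes between the members' length quartiles, 71.8%, 74.4% and 71.7% were marked. The 22 members that build basement membrane are collagen IV, laminins, nidogens, perlecan and the multiplexins Col15a1 and Col18a1. Of these, 12 (54.5%) were marked at 0 h, 16 (72.7%) at 4 h and 15 (68.2%) at 12 h. Their shares at 4 h and 12 h were above those of all genes. Among the other 36 collagens the counts were 7, 10 and 9. The basement membrane counts include Col4a3, Col4a6 and Lamc3, whose peaks lay only at other genes. At all 3 times 17 members were marked, and 31 were marked at none, where 53.0% and 39.3% of all genes were.

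**Figure D1:**
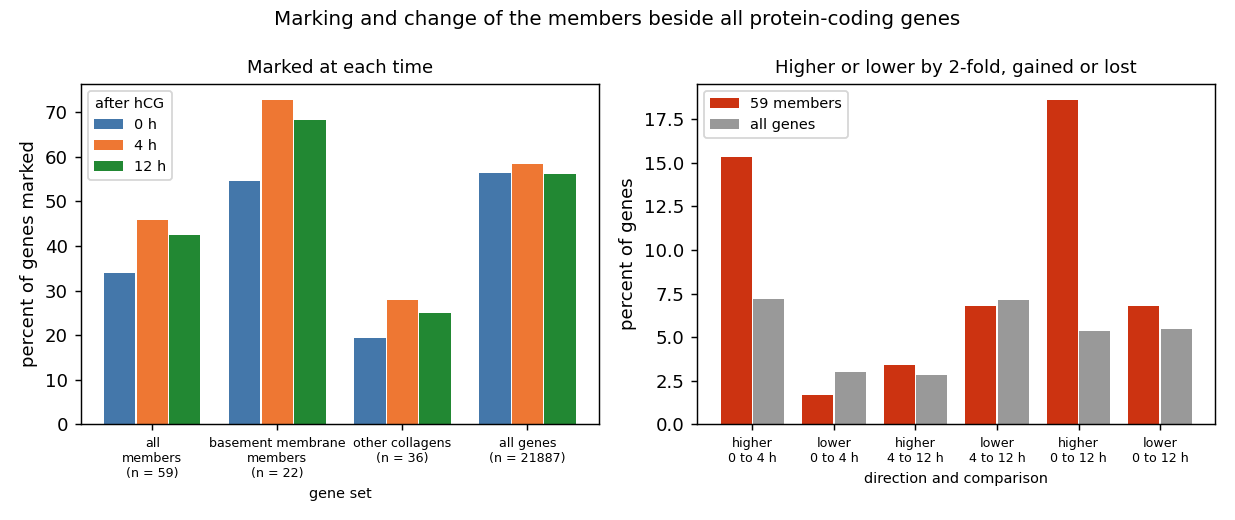
Left, percent of genes marked at 0 h, 4 h and 12 h after hCG in all 59 members, the 22 basement membrane members, the 36 other collagens and all 21887 protein-coding genes. Right, percent of the 59 members (red) and of all genes (grey) that were higher or lower in each comparison. Members higher at 4 h than at 0 h made up 15.3% against 7.20% of all genes, and members higher at 12 h than at 0 h 18.6% against 5.35%. The shares are not matched for gene length or for marking at 0 h, and Col4a1 and Col4a2 share their peaks.

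The members without a peak at any time include Col1a1, Col1a2 and Col3a1, which encode the chains of the most abundant fibrillar collagens, and all 6 collagen VI genes, whose product forms beaded filaments. Without a peak were also Col11a2 and Col5a3 among fibrillar collagens and Col9a1, Col9a2, Col9a3, Col14a1, Col16a1, Col19a1 and Col20a1, which sit on the surface of fibrils. The others among collagens were Col4a4, Col7a1 of the anchoring fibrils, Col8a2, Col10a1 of hypertrophic cartilage, Col13a1, Col15a1, Col17a1 of hemidesmosomes, Col26a1 and Col28a1. Among laminins they included Lama2, a chain of muscle and nerve, and Lama3 and Lamb3, chains found in epithelia such as skin.

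Coverage is not always the member's own. Of the 28 members marked at some time, 22 had a peak within 1 kb of an end or start of the gene itself. Col4a3, Col4a6 and Lamc3 had peaks only outside the gene, over 1 kb away, at other genes. These lay at Mff for Col4a3, at Col4a5 for Col4a6 and at Aif1l for Lamc3. Col12a1, Col22a1 and Col2a1 had peaks of 152 to 286 bp that lay over 1 kb from any annotated end. Peaks of the 3 libraries merged into 52 regions in the members' windows, of which 20 were present at all times and 19 at a single time.

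**Figure D2:**
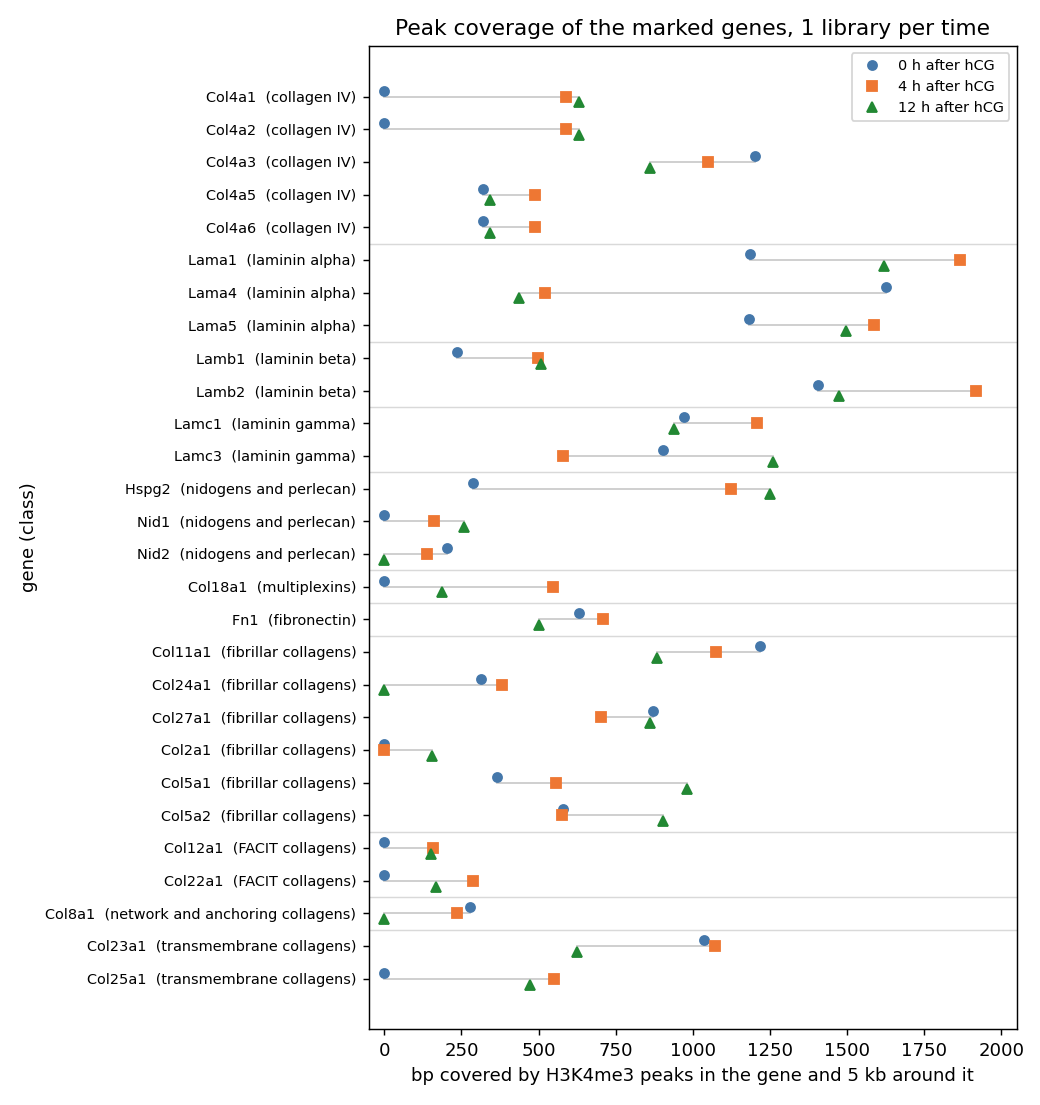
Covered bp of the 28 marked members (x axis) by gene and class (y axis), at 0 h (circles), 4 h (squares) and 12 h (triangles) after hCG, with 1 library per time and a grey line from the lowest to the highest value. Col4a1, Col4a2, Nid1, Col18a1 and Col25a1 sit at 0 bp at 0 h and above it at both later times, while Lama4 has 1626 bp at 0 h and 520 and 437 bp later.

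From 0 h to 4 h, coverage was higher at Col4a1 and Col4a2 through the same peaks, and at Hspg2, Nid1, Col18a1 and Lamb1. All of these are basement membrane genes, and another such gene, Lama4, was lower. Of the other collagens, Col25a1, Col22a1 and Col12a1 were higher. In all, 9 of 59 members (15.3%) were higher and 1 (1.69%) was lower, where 7.20% and 3.02% of all genes were. Of the 9, 7 had 0 bp at 0 h. These shares were not matched for gene length or for marking at 0 h. Of the 22 basement membrane members 6 were higher and 1 lower, and of the other 36 collagens 3 were higher and 0 lower. Over the 20 members marked at both times the median centred log2 ratio was 0.11, with 11 above and 9 below the median of all genes. The 9 higher members stand for 8 places, since Col4a1 and Col4a2 share their peaks.

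Col4a1 and Col4a2 encode the α1 and α2 chains of the collagen IV found in nearly all basement membranes. Both had 0 covered bp at 0 h, 588 bp at 4 h and 631 bp at 12 h. The same 3 peaks were counted for both, on chromosome 8 (mm10) inside the Col4a1 gene. At 4 h they lay at 11312330-11312468, 11311956-11312260 and 11311580-11311723, and the nearest began 358 bp after the Col4a1 start. At 12 h the nearest began 294 bp after it, and each of the 3 peaks overlapped its counterpart at 4 h. The 4 h peaks of 139 and 144 bp are narrower than 187 bp, the 25th width percentile of that library. When peaks below the 25th width percentile of each library were left out, Col4a1 had 0, 305 and 472 bp. The promoter windows of both genes (250 bases before to 50 after each start) had 0 covered bp at every time. The peaks thus lie on the Col4a1 side of the pair, and which of the genes it belongs to cannot be told from the peaks.

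Perlecan, encoded by Hspg2, is the large heparan sulfate proteoglycan that binds growth factors in the basement membrane. Hspg2 had 287 covered bp at 0 h, 1124 bp at 4 h and 1252 bp at 12 h, a 3.92-fold difference between 0 h and 4 h (centred log2 ratio 1.85). At 0 h there were 2 narrow peaks of 136 and 151 bp, 385 to 520 bp and 859 to 1009 bp after the start. At 4 h a single peak ran from 28 to 1151 bp after the start, on chromosome 4 at 137468831-137469954, and at 12 h one ran from 76 to 1139 bp, with a second of 188 bp farther in. With peaks less than 1 kb apart joined, the values were 625, 1124 and 1610 bp, so that Hspg2 no longer reached 2-fold at 4 h.

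Nidogen 1, which links laminin to collagen IV, and its relative nidogen 2 showed opposite orders. Nid1 had 0, 162 and 259 bp at 0 h, 4 h and 12 h. Its peaks began 120 and 404 bp after the start and did not overlap each other. Nid2 had 203, 139 and 0 bp, and its peaks of 0 h and 4 h did not overlap either. The 4 h peaks of both genes are narrower than 187 bp, the 25th width percentile of that library. When peaks below the 25th width percentile of each library were left out, Nid1 was bare at 4 h.

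Collagen XVIII is the source of endostatin, a fragment that restrains vessel growth. Col18a1 had 0 bp at 0 h, 548 bp at 4 h and 186 bp at 12 h. The 4 h peaks began 82 and 606 bp after its distal start, and the 12 h peak overlapped the second of them. Its coverage at 4 h was the only one of the 9 higher members that had become lower by 12 h, with a 2.95-fold difference.

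**Figure D3:**
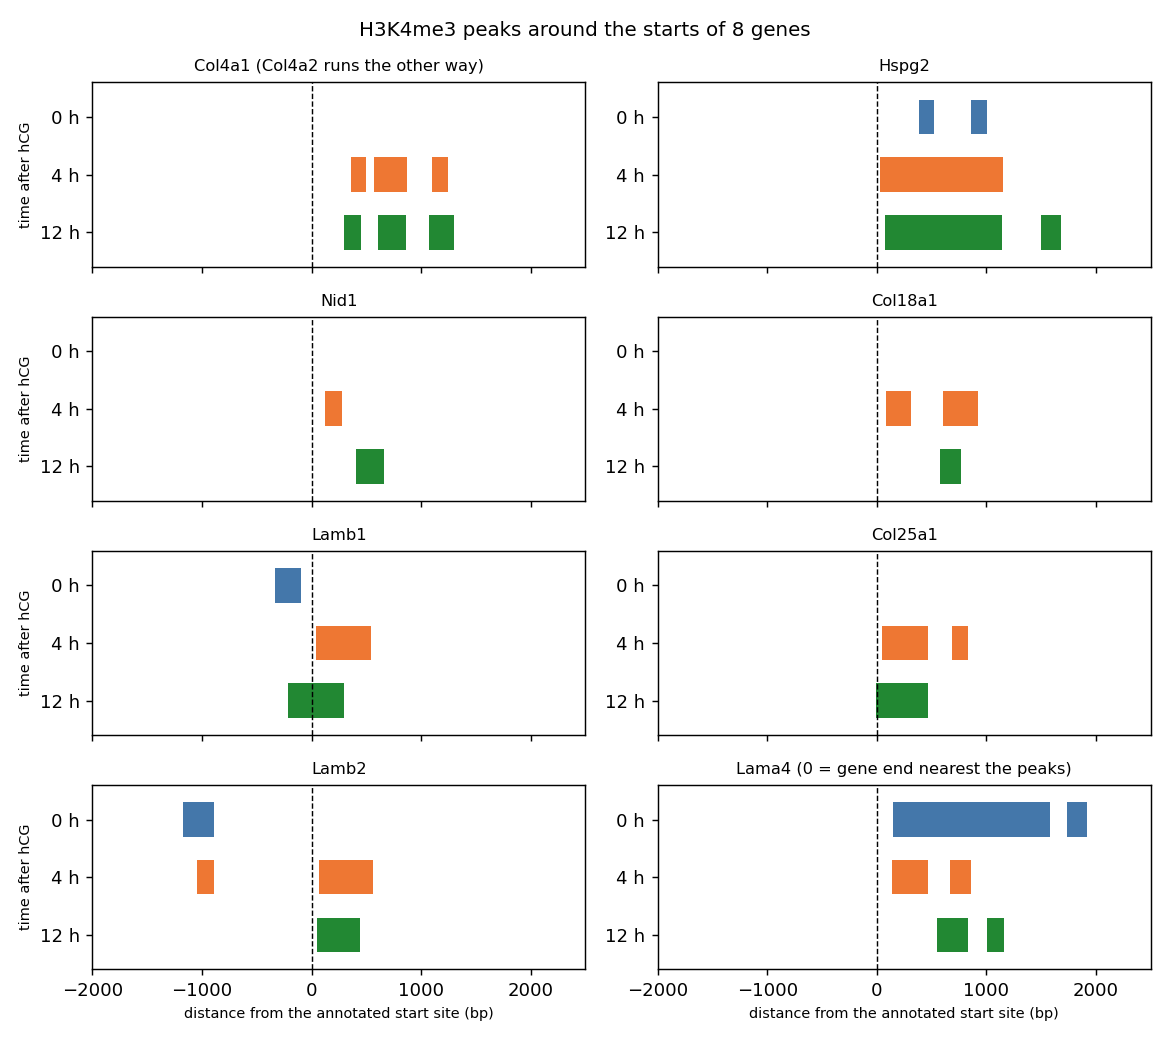
Position of each peak (bars) relative to the annotated start site in bp, at 0 h, 4 h and 12 h after hCG. Shown with transcription to the right are Col4a1, Hspg2, Nid1, the distal start of Col18a1, Lamb1, Col25a1 and Lamb2. Lama4, for which no strand or start was listed, is drawn from its lower-coordinate end, which is nearest its peaks. Peaks at 4 h and 12 h lie mostly in the first kb of the gene, and no peak is drawn at 0 h for Col4a1, Nid1, Col18a1 and Col25a1.

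Laminins are trimers of an α, a β and a γ chain, and 7 of the 11 laminin genes were marked, each at all 3 times. Of these, Lamc3 was marked only through peaks at Aif1l, and Lama5 at 0 h and 12 h only through a peak at Adrm1. Lamb1, the β1 chain of most early basement membranes, had 235 bp at 0 h, 497 bp at 4 h and 509 bp at 12 h, a 2.11-fold difference at 4 h that a limit of 3-fold would not call. Counted from the start, its peak ran from -332 to -98 bp at 0 h and from 44 to 540 bp at 4 h, so the 2 peaks did not overlap. At 12 h 1 peak spanned the start, from -214 to 294 bp. In the 250 bases of Lamb1 printed above, 153 bp were covered at 0 h, 0 at 4 h and 214 at 12 h.

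Lama4, the α4 chain typical of endothelial and other mesenchymal basement membranes, was the 1 member lower at 4 h. It had 1626 bp at 0 h, 520 bp at 4 h and 437 bp at 12 h, which is 3.13-fold less at 4 h than at 0 h (centred log2 ratio -1.76). At 0 h it had a peak of 1441 bp, at 38965660-38967100 on chromosome 10, and another of 185 bp beyond it. These lay near the lower-coordinate end of the gene, for which no strand or start was listed. At 4 h there were 2 peaks of 327 and 193 bp, in the outer part of the 1441 bp, and at 12 h 2 peaks of 285 and 152 bp. Within 1 kb of that gene end the values were 856, 520 and 285 bp, under 2-fold from 0 h to 4 h, so most of the difference lay farther inside the gene.

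The other marked laminins were neither higher nor lower from 0 h to 4 h. Lama1, an α chain of the early embryo and of the follicular basement membrane, had 1185, 1866 and 1620 bp at 0 h, 4 h and 12 h. Part of this was a region 44158 bp inside the gene, at 67741285-67741629 on chromosome 17, with 172, 337 and 344 bp. Lamc1, the γ1 chain present in most laminins, had 972, 1209 and 940 bp. At the higher-coordinate end of the gene, for which no strand was listed, Lamc1 had 972, 928 and 940 bp. A separate peak of 281 bp farther in appeared at 4 h. Lamb2, the β2 chain, had 1407, 1918 and 1474 bp, but most of it was a region at Usp19 with 1132, 1283 and 1082 bp. Next to its own start, Lamb2 had 0 bp at 0 h, 486 bp at 4 h and 392 bp at 12 h in 1 region, and a second one at -895 bp had 275, 149 and 0 bp. Lama5, the α5 chain, had 1183, 1587 and 1497 bp, of which all but a 343 bp peak at 4 h lay at Adrm1. That peak was 232 bp after the Lama5 start and was absent at 0 h and 12 h. Lamc3 had 903, 578 and 1261 bp, all at Aif1l, a 2.18-fold difference between 4 h and 12 h.

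The other collagen IV genes are also arranged in pairs, Col4a3 with Col4a4 and Col4a5 with Col4a6. Col4a5 had 320, 488 and 342 bp at 0 h, 4 h and 12 h, beginning 21 to 78 bp after its start on chromosome X, and the same bp were counted for Col4a6, although at 4 h that peak ended at -1364 bp from the Col4a6 start. Col4a3 had 1202, 1051 and 862 bp, all at Mff, and Col4a4 had none. Fn1, the gene of fibronectin, an adhesive protein that granulosa cells secrete, was marked at all times with 631, 709 and 502 bp.

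Among the other collagens, coverage that was absent at 0 h and present at 4 h was found at 3 genes. Col25a1, a transmembrane collagen of neurons and muscle, had 0, 550 and 473 bp at 0 h, 4 h and 12 h, with a 4 h peak from 53 to 463 bp after its start and a 12 h peak that overlapped it. Col22a1, a collagen of tissue junctions, had 0, 286 and 166 bp, over 1 kb outside the gene. Col12a1, which coats fibrils, had 0, 158 and 152 bp, and its 4 h and 12 h peaks lay at different places. The values for Col12a1 are near the narrowest peak widths of these libraries.

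The fibril-forming collagens that were marked were mostly minor ones. Col5a1 and Col5a2 encode chains of collagen V, which controls how fibrils start. Col5a1 had 366 bp at 0 h, 558 bp at 4 h and 982 bp at 12 h, 2.68-fold more at 12 h than at 0 h (centred log2 ratio 1.44), and Col5a2 had 579, 577 and 903 bp. Within 1 kb of its start Col5a1 had 153, 558 and 755 bp, which makes it higher at 4 h by that window. Col5a1 and Col5a2 thus had their highest coverage at 12 h, while Col5a3, also of collagen V, had no peak at any time. Col11a1, a collagen XI chain related to collagen V, had 1217, 1076 and 885 bp, and Col27a1, of cartilage, had 871, 702 and 860 bp. Col24a1 had 314, 381 and 0 bp, and Col2a1, of cartilage, had a single peak of 154 bp at 12 h. Col23a1, a transmembrane collagen, had 1036, 1071 and 626 bp, most of it at Phykpl, and 252, 234 and 152 bp within 1 kb of its own start. Col8a1, a network collagen of vessels, had 279, 234 and 0 bp.

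Between 4 h and 12 h few members differed, and their counts were close to those of all genes. Of the 59 members 2 (3.39%) were higher and 4 (6.78%) lower, against 2.83% and 7.12% of all genes. The higher members were Lamc3, through peaks at Aif1l, and Col2a1. The lower members were Col18a1, Nid2, Col24a1 and Col8a1, the last 3 of which had no peak at 12 h. Over the 24 members marked at both times the median centred log2 ratio was -0.07.

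Across the whole interval from 0 h to 12 h, 11 members (18.6%) were higher and 4 (6.78%) lower, against 5.35% and 5.45% of all genes. Of the 11, 8 had 0 bp at 0 h, and the shares were not matched for gene length or for marking at 0 h. This comparison shares its libraries with the others and is no independent observation of them. The higher members were Col4a1, Col4a2, Hspg2, Nid1, Col18a1, Lamb1, Col25a1, Col12a1 and Col22a1, which were already higher at 4 h, together with Col5a1 and Col2a1. The lower members were Lama4, Nid2, Col24a1 and Col8a1. Over the 17 members marked at both times the median centred log2 ratio was 0.11. When peaks below the 25th width percentile were left out, 7 members were higher, and Col12a1, Col18a1, Col22a1 and Col2a1 were no longer among them.

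All 7 members that first had a peak at 4 h still had one at 12 h. They were Col4a1, Col4a2, Nid1, Col18a1, Col25a1, Col12a1 and Col22a1, 11.9% of members, where 1.63% of all genes had this pattern. Col4a1 and Col4a2 share their peaks. The 2 shares were not matched for gene length or for marking at 0 h, when 33.9% of members and 56.3% of all genes were marked. No member was marked at 4 h alone, a pattern of 396 genes or 1.81%. Both statements rest partly on peaks below the 25th width percentile (187 bp at 4 h and 211 bp at 12 h). Without such peaks Nid1 had 0, 0 and 259 bp and Col18a1 0, 548 and 0 bp. Col22a1 then lost its 12 h peak of 166 bp, and Col12a1 its peaks of 158 and 152 bp. Col4a1 (0, 305 and 472 bp) and Col25a1 (0, 411 and 473 bp) kept the pattern. At Col4a1 and Col4a2, Col18a1, Col25a1 and Col22a1 a 12 h peak overlapped one of 4 h, and at Nid1 and Col12a1 it did not. Coverage was also counted only within 1 kb of the gene start. For genes without an annotated start, 17 of them members, both gene ends were used instead. By this window 10 members were higher from 0 h to 4 h, where 5.94% of all genes were. None was lower, where 657 of the 21887 genes (3%) were. By this window Col5a1, Lama5 and Lamb2 were higher and Col12a1 and Col22a1 were not. From 4 h to 12 h, 0 members were higher and 5 lower, against 2.78% and 6.26% of all genes. From 0 h to 12 h, 9 were higher and 4 lower, against 4.94% and 5.03%.

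Basement membrane is also made by endothelium. Of the 3 marked endothelial genes, Kdr and Erg had coverage at 4 h (347 and 170 bp) that was absent at 0 h, and the 302 bp of Sox18 at 0 h were gone by 4 h. The other 8 of the 11 endothelial genes had 0 bp at every time, and at unknown depth a missing peak does not show that a cell type is absent. The part of other cell types in these changes was not tested.

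**Figure D4:**
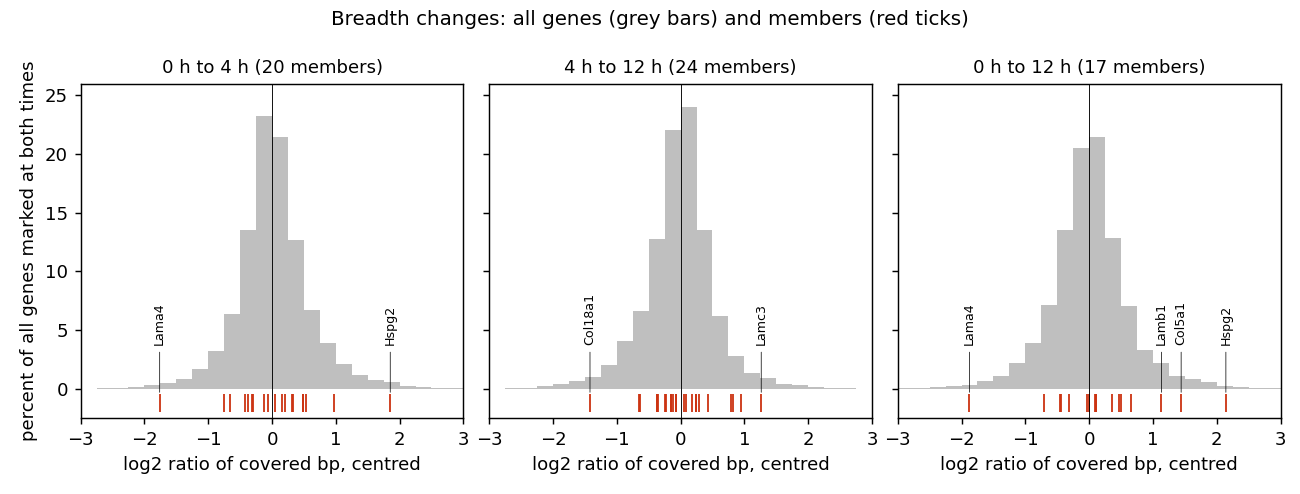
Centred log2 ratio of covered bp (x axis) for each comparison, as the percent of all genes marked at both times in each bin (grey bars) and as 1 red tick per member, with 20, 24 and 17 members. Members beyond 1 in either direction are named, and Lama4 (-1.76) and Hspg2 (1.85) are farthest out from 0 h to 4 h.

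Most members lay within the spread of all genes. From 0 h to 4 h, the 5th and 95th percentiles of genes marked at both times were -0.87 and 1.02, and Hspg2 (1.85) and Lama4 (-1.76) were the 2 members outside it. From 0 h to 12 h the range was -0.99 to 1.03, and Hspg2 (2.14), Col5a1 (1.44), Lamb1 (1.13) and Lama4 (-1.88) lay outside. From 4 h to 12 h it was -0.95 to 0.82, with Lamc3 (1.26), Col5a1 (0.95) and Col18a1 (-1.42) outside.

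The start sites of the members were compared by their sequence, which the choice of members did not use. A promoter window of 250 bases before to 50 after the start was found in RefSeq for 42 members, 4 of which had 2 windows. In the 16 windows with a peak within 1 kb of the start the median number of CpG dinucleotides was 19, and in the 30 without it was 6. Over all genes the medians were 22 and 4. A GC box was present in 14 of the 16 windows (87.5%) and in 14 of the other 30 (46.7%), where all genes had 68.9% and 20.8%. The TATA box was present in 0 of 16 and 5 of 30 windows (5.85% and 20.2% of all genes), a CCAAT box in 8 and 7 (38.3% and 38.0%) and an AP-1 site in 0 and 1 (4.10% and 10.2%). A match is only a match of letters. Members share libraries and some share a promoter, and no test was made. Among members higher at 4 h that have an entry, the windows had 37 CpG for Col4a1, 33 for Col4a2, 27 for Hspg2, 23 for Col25a1, 20 for Nid1, 18 for Lamb1 and 16 for the distal and 6 for the proximal start of Col18a1.

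**Figure D5:**
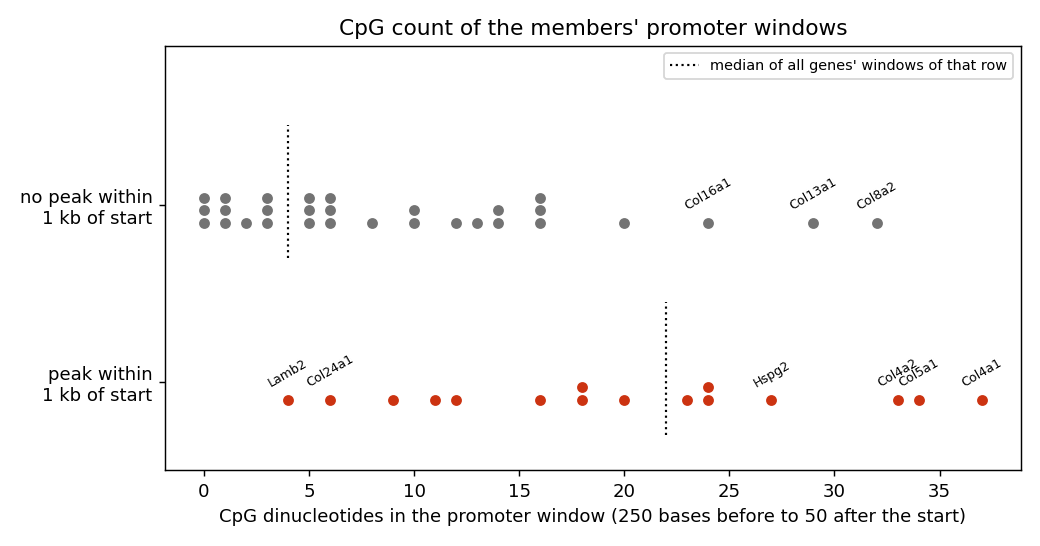
Number of CpG dinucleotides (x axis) in each of the members' 46 promoter windows, for the 16 with and the 30 without a peak within 1 kb of the start at any time (y axis). Each point is a window, points of equal value are stacked, and dotted lines mark the median of all genes' windows in the same row (22 and 4).

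Genes that act on these proteins were mostly marked throughout. Of 28 genes for collagen modification and secretion 22 were marked at all times, against 8 of the 44 collagens and 53.0% of all genes. Among them 2 were higher and 2 lower from 0 h to 4 h, 3 and 2 from 4 h to 12 h, and 3 and 0 from 0 h to 12 h. As shares these were 7.14% and 7.14%, 10.7% and 7.14%, and 10.7% and 0%, where all genes had 7.20% and 3.02%, 2.83% and 7.12%, and 5.35% and 5.45%. The median centred log2 ratio was -0.05 from 0 h to 4 h. Serpinh1, the collagen chaperone, had 1566, 1722 and 1674 bp, chosen after its values were seen. The largest changes were at Adamts3, a procollagen peptidase (325, 1030 and 1010 bp), Plod2, a lysyl hydroxylase (1025, 1214 and 574 bp), and Mia2, which helps to export large cargo (1751, 1268 and 1199 bp).

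Of 22 collagen and laminin receptor genes 17 were marked at all times, where 53.0% of all genes were. Among them 1 was higher and 2 lower from 0 h to 4 h, 2 and 2 from 4 h to 12 h, and 3 and 1 from 0 h to 12 h. The shares were 4.55% and 9.09%, 9.09% and 9.09%, and 13.6% and 4.55%, each from 1 to 3 genes. All genes had 7.20% and 3.02%, 2.83% and 7.12%, and 5.35% and 5.45%. The largest changes were at Itga2, the α2 chain of a collagen-binding integrin (806, 2124 and 568 bp), and the syndecan genes Sdc4 (1314, 802 and 1588 bp) and Sdc1 (1297, 1866 and 2064 bp). Itga2 was the 1 receptor gene higher at 4 h, and by 12 h its coverage was below that at 0 h. The receptor list had a median centred log2 ratio of 0.01 from 0 h to 4 h.

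Of 28 other matrix genes 12 were marked at all times, a share below the 53.0% of all genes. From 0 h to 4 h 3 were higher and 2 lower (10.7% and 7.14%, against 7.20% and 3.02% of all genes). From 4 h to 12 h the counts were 4 and 8 (14.3% and 28.6%, against 2.83% and 7.12% of all genes). From 0 h to 12 h they were 4 and 9 (14.3% and 32.1%, against 5.35% and 5.45% of all genes). The largest changes were at Tnc, the gene of tenascin C (1367, 348 and 237 bp), Sparc, a collagen-binding protein of remodelling tissue (421, 1396 and 1153 bp), and Fbln1, a basement membrane fibulin (1546, 1610 and 719 bp). Sparc was high at the same 2 times as Hspg2, Col4a1 and Col4a2, and Tnc was high at 0 h alone, as Lama4 was. Fbln1 followed neither pattern, and these likenesses were picked after the values were seen. The median centred log2 ratio of this list was -0.43 from 0 h to 12 h, where that of the members was 0.11. No test of these differences was possible.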

How the data were processed

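H3K4me3 was profiled in 1 library per time (0 h, 4 h and 12 h after hCG). The authors deposited 1 peak list per library with the chromosome, start and end of each peak in bp, and no score, height or depth. Per the submitters' processing notes, the tools were CASAVA 1.8, Bowtie2 2.2.3 and MACS2 2.0.9, and the build was mm10. No label states the cutoff for calling a peak or any input library. A region just under that cutoff counts as absent.

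Peaks outside the 19 autosomes and the sex chromosomes were left out (5, 3 and 6), and the rest were compared with RefSeq genes of GRCm38.p6, which has the mm10 coordinates. Each gene was counted with 5 kb on either side. Covered bp, calls and ratios were computed in Python 3.11.15 on all 21887 genes, and the calling code was tested on simulated data. Strand and start sites came from the RefSeq promoter table. Where a gene had no entry there, as for 17 members, both gene ends stood in for the start. The members and lists were chosen with earlier results of these data known. Every marked member is named, and 1 member without a peak is counted but not reported by name here. From the pathway lists the 3 genes with the largest change in covered bp are named. Alternatives were other windows, narrow peaks left out, equal numbers of the widest peaks (20669), joined peaks, peaks near another gene's end left out, and a 3-fold limit.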

Additional observations from a re-analysis of the deposited data

How the results depend on the processing

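Of 90 recomputed counts and medians, 77 stayed within 1.5 times the count, or within 0.1 of the median, and 13 did not. Several of these counts are of 1 or 2 genes, where a change of 1 gene can pass this limit. Members higher from 4 h to 12 h (2) numbered 1 with a 1 kb window, 0 within 1 kb of the gene start, 4 when lists were cut to equal size by width and 1 with a 3-fold limit. Members lower from 0 h to 4 h (1) numbered 0 within 1 kb of the start, where Lama4 did not reach 2-fold, 3 without narrow peaks, and 2 when list sizes were made equal. Members higher from 0 h to 12 h (11) numbered 7 without narrow peaks. The median centred log2 ratio from 0 h to 4 h (0.11) was -0.08 without narrow peaks and 0.22 with joined peaks. From 4 h to 12 h (-0.07) it was 0.04 without narrow peaks. From 0 h to 12 h (0.11) it was 0.38 with joined peaks and -0.01 without peaks near another gene's end. The cause was not tested. The 9 members higher at 4 h numbered 7 to 10 under all alternatives, and Col4a1, Col4a2, Col18a1 and Col25a1 were among them each time. No paired analysis was possible because each time has 1 library. Depth is unknown, and without replicates no value here has an error.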

Other observations

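The CpG count of a start and its mark did not always go together. Col8a2 (32 CpG in its promoter window), Col13a1 (29) and Col16a1 (24) had no peak in the gene or within 5 kb of it at any time, although the median over all genes' windows with a peak is 22. In the other direction Lamb2 (4 CpG) and Col24a1 (6) had a peak within 1 kb of the start. These genes were picked after their values were seen.

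At many members the peaks left the bases around the start itself bare. Of the promoter windows of Col4a1, Col4a2, Nid1, the distal start of Col18a1, Lama5, Col23a1, Col24a1 and Col8a1, 0 bp were covered at every time, although each of these genes had a peak within 1 kb of a start. Lamb1 and Col11a1 had the highest coverage there. The Col11a1 window had 252, 246 and 10 covered bp at 0 h, 4 h and 12 h, and the Lamb1 window had 153, 6 and 264 bp. These genes, too, were picked after their values were seen.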
